A study of Homo sapiens with 36 samples.

Results

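RPE1* 7/3 is a trisomic human cell line, and the data described here are the 403 mature miRNAs listed in its table, of 509 listed over the 7 tables of the series. All entries of the table were taken, with no selection on their values. RPE1 cells come from human retinal pigment epithelium and were immortalised with hTERT, the catalytic subunit of telomerase, and the asterisk marks cells that express histone H2B fused to GFP. RPE1* 7/3 carries 3 copies of chromosome 7, the extra copy having been brought in by microcell-mediated transfer, and the study's methods list a spontaneous gain of chromosomes 9 and 12 in it. Its control was RPE1* without an added chromosome. 3 small RNA libraries of RPE1* 7/3, numbered 1 to 3, and 3 control libraries, numbered 11 to 13, entered the table. The labels name no clone for RPE1* 7/3, so it stands for a single line and not for trisomy 7 in general.

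The level of a miRNA is the authors' mean normalised read count over these 6 libraries, so it pools RPE1* 7/3 with its control and has no SD. Values of single libraries were not analysed here, and the authors' own fold changes and p-values were not used. The question the study put to these libraries, which miRNAs differ between RPE1* 7/3 and RPE1*, is therefore not answered by the values below. They describe which miRNAs were abundant in the pooled RPE1* 7/3 and RPE1* libraries, where those miRNAs are encoded, and how the levels stand beside the tables of 2 other RPE1 lines. These lines are RPE1* 21/3, with 3 copies of chromosome 21, and RPE1 5/3 12/3, with 3 copies each of chromosomes 5 and 12 and no H2B-GFP by its name, each pooled with a control of its own. One limit on the groups follows from arithmetic. With 3 libraries in each group, neither group can have a mean above 2 times the pooled mean, and at least one group has a mean as high as the pooled mean.

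miRNAs are short RNAs cut from hairpin precursors, and they guide Argonaute proteins to mRNAs that pair with the seed, bases 2 to 8 of the mature miRNA. Hairpins often lie in clusters that are transcribed together, or inside introns of protein-coding host genes. One hairpin can give a mature miRNA from each arm, named 5p and 3p, and of the names listed 274 ended in 5p, 10 in 3p and 119 in neither. For miR-25, miR-29, miR-23, miR-27 and miR-24 the well-known guide strand is the 3p arm, so the 5p values given for them concern the opposite strand of the duplex. Shares of the summed mean, of a chromosome or of the top miRNAs, are therefore shares of the listed names. They are not shares of all products of the hairpins.

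Chromosome 7 encodes several well-known miRNA groups. The first is the cluster of miR-183, miR-96 and miR-182, known from sensory cells of the retina and ear, and the second is the miR-106b/93/25 cluster within MCM7, a relative of the miR-17/92 cluster. Sequences are shown for these and for the members that took most of the chromosome 9 signal or stood apart between tables, with the seed in capitals. They are RefSeq mature sequences from a GRCh38.p14 table, 5′ to 3′. Names of 334 of the 403 miRNAs had a sequence in that table.
hsa-miR-183-5p: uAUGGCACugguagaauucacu
hsa-miR-96-5p: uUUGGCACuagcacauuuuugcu
hsa-miR-182-5p: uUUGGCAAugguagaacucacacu
hsa-miR-93-5p: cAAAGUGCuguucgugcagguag
hsa-miR-106b-5p: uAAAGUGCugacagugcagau
hsa-miR-25-5p: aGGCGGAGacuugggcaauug
hsa-miR-196b-5p: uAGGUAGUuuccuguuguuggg
hsa-miR-196a-5p: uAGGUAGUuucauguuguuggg
hsa-miR-335-5p: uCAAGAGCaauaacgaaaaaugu
hsa-miR-550a-5p: aGUGCCUGagggaguaagagccc
hsa-miR-550a-3-5p: aGUGCCUGagggaguaagag

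Chromosome 9 encodes the let-7a/7f/7d cluster, whose members share a seed with each other and with let-7i of chromosome 12, as well as miR-204, miR-31 and one of the loci of miR-7.
hsa-let-7a-5p: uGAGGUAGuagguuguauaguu
hsa-let-7f-5p: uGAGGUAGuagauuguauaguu
hsa-let-7d-5p: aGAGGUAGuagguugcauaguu
hsa-let-7i-5p: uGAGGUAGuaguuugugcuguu
hsa-miR-204-5p: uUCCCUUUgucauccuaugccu
hsa-miR-31-5p: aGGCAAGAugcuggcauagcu
hsa-miR-7-5p: uGGAAGACuagugauuuuguuguu

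The table was dominated by few miRNAs. hsa-miR-100-5p had a mean normalised read count of 4728513, which is 42.1% of the summed mean of 11221232. hsa-miR-21-5p, a miRNA abundant in many cultured cell types, followed with 33.3%. The let-7 family, whose members restrain growth-promoting genes such as HMGA2, came next with hsa-let-7i-5p at 7.29% and hsa-let-7a-5p at 3.09%. The top 10 was completed by hsa-miR-30a-5p (3.00%), hsa-miR-26a-5p (1.61%), hsa-let-7f-5p (1.44%), hsa-miR-10a-5p (0.772%), hsa-miR-99b-5p (0.717%) and hsa-miR-7-5p (0.658%). These 10 miRNAs held 94.1% of the summed mean. At the other end, 156 miRNAs had a mean under 10 and together held 0.00543% of it, while 247 had a mean of at least 10, 147 of at least 100 and 80 of at least 1000. The median over all 403 was 23.7. Levels were compared between miRNAs without division by length, since a read covers a whole mature miRNA and those with a sequence were 17 to 27 bases long.

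The labelled cell type was checked against marker miRNAs. hsa-miR-204-5p, a miRNA known for its abundance in retinal pigment epithelium, stood at 1450 per 1000000 of the summed mean, and together with hsa-miR-211-5p, of the same seed, at 1452 per 1000000. In the 4 tables of HCT116, a colorectal cancer line, the 2 miRNAs together stood at 3.302 to 4.501 per 1000000. The miR-200 family and miR-141, which mark most other epithelia, had 0 of 5 markers listed in the RPE1* 7/3 table, whereas 4 were listed in each HCT116 table with a sum of 1270 to 2747 per 1000000. Markers of blood cells and of skeletal and heart muscle had 0 members listed. The muscle markers had 0 in each HCT116 table as well. With only 10 listed names ending in 3p, a marker that is not listed cannot be read as absent from the cells. The smooth muscle and fibroblast markers hsa-miR-143-5p and hsa-miR-145-5p were both listed and summed to 8.81 per 1000000. The single listed marker of neurons, hsa-miR-9-5p, stood at 9.26 per 1000000, against 1778 to 2663 in the HCT116 tables. That of pluripotent cells, hsa-miR-302a-5p, stood at 3.16 per 1000000, that of endothelium, hsa-miR-126-5p, at 1.88, and that of liver, hsa-miR-122-5p, at 0.441. In the HCT116 tables hsa-miR-126-5p stood at 63.6 to 171 per 1000000, hsa-miR-122-5p at 1.03 to 3.29 and hsa-miR-302a-5p at 0.721 to 15.6. Since the smooth muscle, neuron, endothelium and liver markers were higher in a colorectal cancer line, their low levels here do not identify a cell type.

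19 of the listed miRNAs had all their placed loci on chromosome 7, the chromosome added to this line. 15 of them had a mean of at least 10 and 14 of at least 100. The 19 miRNAs held 0.206% of the summed mean. The median level of the chromosome 7 miRNAs at a mean of at least 10 was 416. The 196 such miRNAs of chromosomes other than 7, 9 and 12 had a median of 145.04, with quartiles of 30.6 and 1425. Among single chromosomes, 14, 17, 19 and 21 had higher medians than chromosome 7 (466, 637, 955 and 13250), and the others lower ones. The highest miRNA of chromosome 7 was hsa-miR-183-5p, and the plot of chromosome 7 levels shows how far the values spread.

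**Figure D1:**
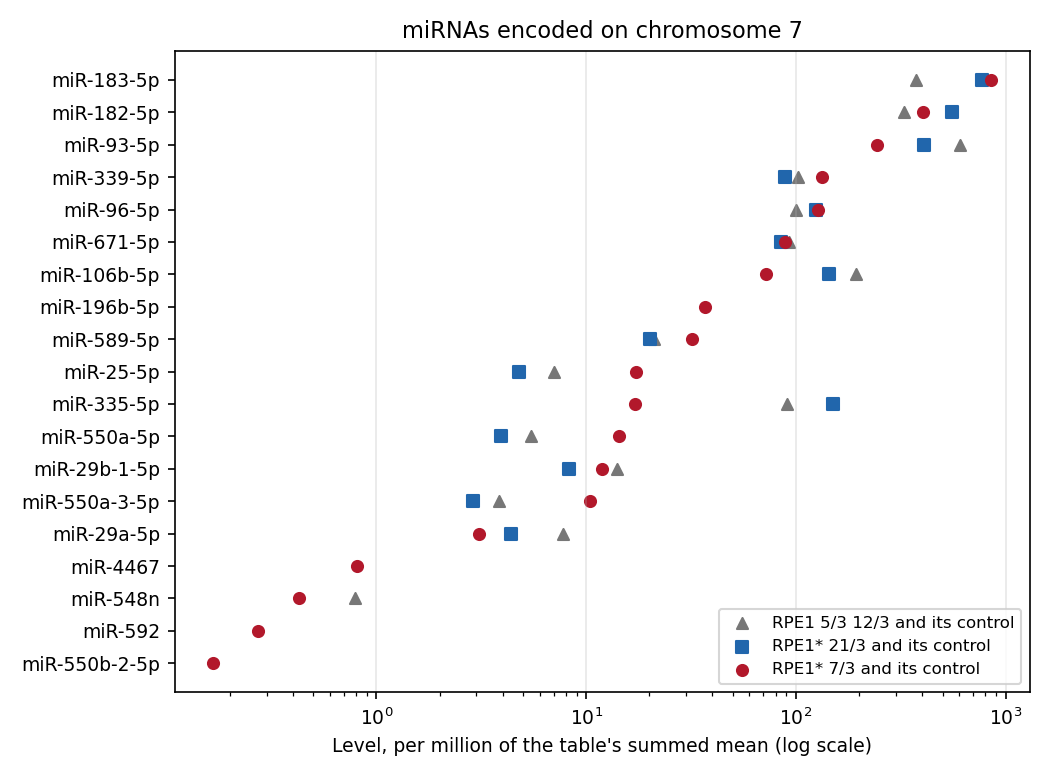
Level of each of the 19 miRNAs encoded only on chromosome 7, per 1000000 of a table's summed mean, on a log axis, in the tables of RPE1* 7/3 (circles), RPE1* 21/3 (squares) and RPE1 5/3 12/3 (triangles). Each point is one authors' mean over a line and its control, with no error; hsa-miR-335-5p lies far lower, and hsa-miR-25-5p and both miR-550a miRNAs higher, in the RPE1* 7/3 table, and hsa-miR-196b-5p, hsa-miR-4467, hsa-miR-592 and hsa-miR-550b-2-5p have a point in that table alone.

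The cluster of miR-183, miR-96 and miR-182 supplied 66.9% of the signal of chromosome 7. Its 3 hairpins lie on the minus strand at chr7:129410223-129414854 (GRCh37), in an intron of a long transcript with the identifier ENSG00000286380. hsa-miR-183-5p had a mean normalised read count of 9537, hsa-miR-182-5p of 4512 and hsa-miR-96-5p of 1432. As the sequences above show, the seeds of miR-96 and miR-183 differ at 1 position, those of miR-182 and miR-96 at 1, and those of miR-183 and miR-182 at 2, so the 3 miRNAs are close but not identical in the letters that pair with targets. hsa-miR-183-5p made up 61.6% of the cluster in this table, 53.0% in the table of RPE1* 21/3 and 46.8% in that of RPE1 5/3 12/3. The order of the 3 miRNAs was the same in each.

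The miR-106b/93/25 cluster supplied a further 16.1%. It lies at chr7:99691183-99691697 on the minus strand within MCM7, which encodes a subunit of the replicative helicase, with the hairpins of miR-25 and miR-106b in introns and that of miR-93 overlapping an exon of at least one annotated transcript. hsa-miR-93-5p had a mean of 2725, hsa-miR-106b-5p of 810 and hsa-miR-25-5p of 194.5. miR-93 and miR-106b share the seed AAAGUGC with hsa-miR-20a-5p, hsa-miR-17-5p, hsa-miR-106a-5p and hsa-miR-20b-5p, a group known to promote the cell cycle. These 6 miRNAs summed to 11549, or 0.103% of the summed mean, and hsa-miR-20a-5p of chromosome 13 was the highest at 6721. The make-up of the cluster differed between tables in one member. hsa-miR-93-5p was 14.01 times as high as hsa-miR-25-5p in this table and 86.0 times as high in each of the other RPE1 tables, while its ratio to hsa-miR-106b-5p was 3.36, 2.85 and 3.12.

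Of all 403 miRNAs, 269 were also listed in the table of RPE1* 21/3, as were 14 of the 19 of chromosome 7. Absence there was therefore not particular to chromosome 7. 4 of the 19 chromosome 7 miRNAs were listed in neither other table of RPE1 cells. The same held for 5 of the 17 of chromosome 9, so this too was not particular to chromosome 7. 3 of the 4 on chromosome 7, hsa-miR-4467, hsa-miR-592 and hsa-miR-550b-2-5p, had means under 10. The other was hsa-miR-196b-5p, encoded within the HOXA cluster. The hairpin of miR-196b lies on the minus strand at chr7:27209099-27209183, where it overlaps an exon of HOXA9, and miR-196 is known to target HOX mRNAs. The mean of hsa-miR-196b-5p, 416, places it at rank 98 of 403. At least one of the groups pooled therefore had a mean of 416 or more, and neither had one above 831. The lowest mean listed was 1.10 here, 4.67 in the table of RPE1* 21/3 and 4.58 in that of RPE1 5/3 12/3. In the 4 HCT116 tables hsa-miR-196b-5p stood at 126 to 312 per 1000000 of the summed mean, against 37.0 per 1000000 here. hsa-miR-196a-5p of chromosomes 12 and 17 has the same seed and differs from it at 1 position of the whole sequence, and its mean was 42.6, so hsa-miR-196b-5p was 9.75 times as high.

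hsa-miR-335-5p showed the opposite pattern. It is encoded in an intron of MEST, an imprinted gene, at chr7:130135952-130136045. Its mean was 192 in this table, 1215 in that of RPE1* 21/3 and 822 in that of RPE1 5/3 12/3. Neither RPE1* 7/3 nor its control can have had a mean above 384. On the scale of each table this is below the pooled mean of both other tables.

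The remaining members of chromosome 7 lay mostly in introns of single genes. hsa-miR-339-5p, in an intron of C7orf50, had a mean of 1494. hsa-miR-671-5p, over an exon of the chondroitin-polymerising factor gene CHPF2, had 990, and hsa-miR-589-5p, in an intron of FBXL18, had 359. hsa-miR-339-5p and hsa-miR-589-5p were higher in share than in both other RPE1 tables. The share of hsa-miR-671-5p was nearly level, at 0.00882% here, 0.00848% in the table of RPE1* 21/3 and 0.00926% in that of RPE1 5/3 12/3. hsa-miR-550a-5p comes from hairpins in ZNRF2 and its pseudogene copy ZNRF2P1 and had a mean of 162, and hsa-miR-550a-3-5p, from ZNRF2P2, had 117. These near-identical miRNAs share their seed, and reads could be counted for either, so their values are uncertain as separate measurements. They kept nearly the same proportion in the 3 RPE1 tables, hsa-miR-550a-5p being 58.0%, 57.4% and 58.5% of the pair.

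The 5p miRNAs of the miR-29 pair on chromosome 7 were low, with a mean of 134 for hsa-miR-29b-1-5p and 34.6 for hsa-miR-29a-5p. These hairpins were placed on chromosome 7 by their neighbouring genes only. hsa-miR-4467 (9.04), hsa-miR-548n (4.82), hsa-miR-592 (3.05) and hsa-miR-550b-2-5p (1.87) lay under a mean of 10. hsa-miR-592 lies in an intron of the glutamate receptor gene GRM8. 2 miRNAs placed both on chromosome 7 and elsewhere, hsa-miR-1285-5p at 12.1 and hsa-miR-548o-5p at 1.87, completed the list of placed members. Hairpins missed by the placement are left out. This could hold for hsa-miR-129-5p (mean 76.2), which was placed on chromosome 11 by MIR129-2 alone. Of 16 chromosome 7 miRNAs with a hairpin in the GENCODE annotation, 12 were intronic and 4 overlapped an exon on the same strand, while of all 343 miRNAs with such a hairpin 62.4% were intronic, 19.0% exonic and 18.7% in no gene on the same strand.

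17 miRNAs had all loci on chromosome 9, which this line gained spontaneously, and they held 0.414% of the summed mean. 11 had a mean of at least 10, with a median of 225. hsa-miR-204-5p, hsa-let-7d-5p and hsa-miR-31-5p supplied 88.7% of that signal. hsa-miR-204-5p, in an intron of the ion channel gene TRPM3 at chr9:73424891-73425000, had a mean of 16266. It was 4173 in the table of RPE1* 21/3 and 3458 in that of RPE1 5/3 12/3, and so stood highest here.

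**Figure D2:**
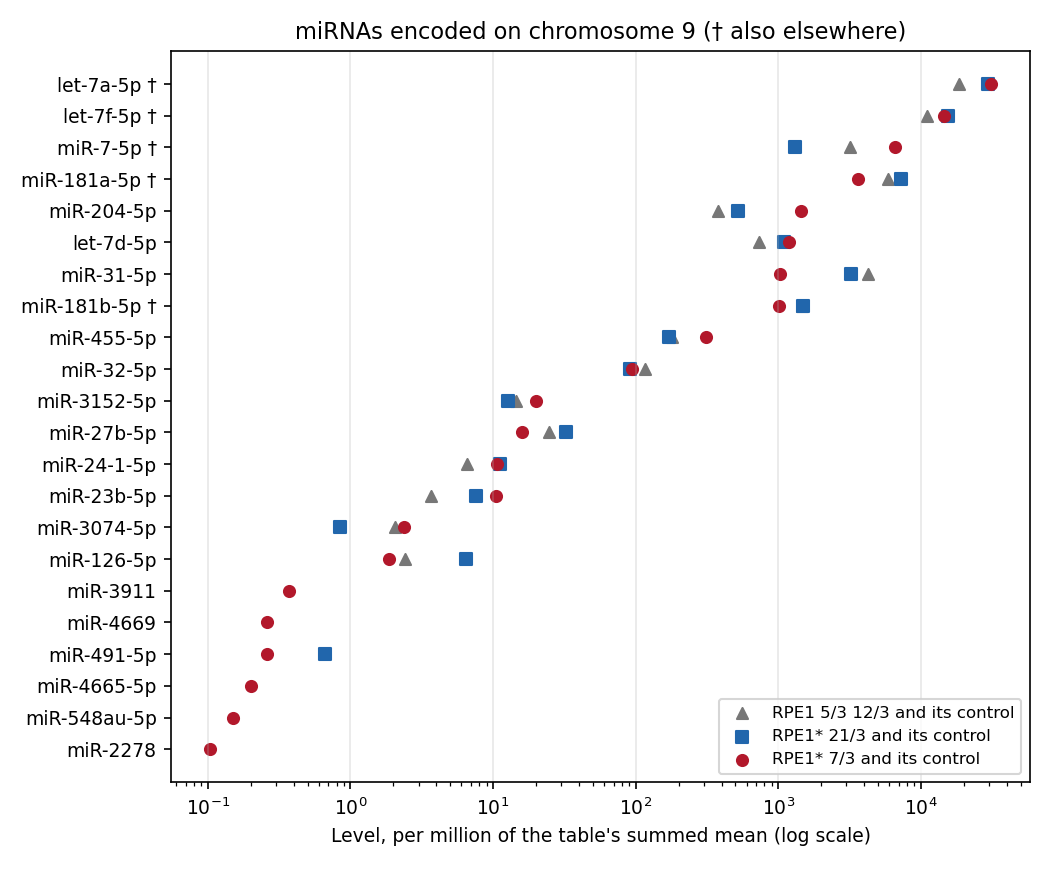
Level of each of the 22 miRNAs with a locus on chromosome 9, per 1000000 of a table's summed mean, on a log axis, in the tables of 3 RPE1 lines, each pooled with its control; a dagger marks the 5 miRNAs also encoded on other chromosomes. hsa-miR-204-5p and hsa-miR-7-5p are highest in the RPE1* 7/3 table (circles), and hsa-miR-31-5p is lowest there.

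hsa-miR-31-5p, in an intron of its host transcript MIR31HG near the CDKN2A locus, moved the other way between tables. Its mean was 11537 here, 25952 in the table of RPE1* 21/3 and 38499 in that of RPE1 5/3 12/3. hsa-miR-455-5p, in an intron of the collagen gene COL27A1, had a mean of 3499, against 1380 and 1638. hsa-miR-32-5p, in an intron of TMEM245, had 1062, against 730 and 1059. Its share of the summed mean was 0.00946% here, against 0.00906% and 0.0116%, so by share the table of RPE1* 21/3 was the closer. hsa-miR-3152-5p, in an intron of ADAMTSL1, had 225, against 103 and 133. These means are on the separate scale of each table. By share, the order of the tables was the same for hsa-miR-31-5p, hsa-miR-455-5p and hsa-miR-3152-5p.

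The let-7a/7f/7d hairpins lie together at chr9:96938234-96941202, overlapping exons of the long noncoding transcript MIRLET7A1HG. hsa-let-7d-5p has no other locus in the annotation and had a mean of 13411. hsa-let-7a-5p (346606) and hsa-let-7f-5p (161677) are also encoded elsewhere, the first on chromosomes 11 and 22 and the second on chromosome X, and their reads cannot be assigned to one hairpin. With these and the other miRNAs of several chromosomes included, the share of chromosome 9 was 6.06%. hsa-let-7a-5p was 25.8 times as high as hsa-let-7d-5p, against 27.03 and 25.31 times in the other RPE1 tables, a narrow range for miRNAs of which only one is specific to chromosome 9. They differ at 2 positions and share the seed, so some reads of one may be counted for the other.

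hsa-miR-7-5p, known to restrain EGFR signalling, was the tenth most abundant miRNA with a mean of 73817. Loci were found in an exon of HNRNPK on chromosome 9 (MIR7-1) and on chromosome 19 (MIR7-3). The hairpin numbered between these was not placed, so this set of sources may be incomplete. The mean of hsa-miR-7-5p was 10556 in the table of RPE1* 21/3 and 28896 in that of RPE1 5/3 12/3. At least one of the groups of RPE1* 7/3 and its control had a mean of 73817 or more, while neither RPE1* 21/3 nor its control can have exceeded 21112 on the scale of their table. hsa-miR-181a-5p (40471) and hsa-miR-181b-5p (11421) are encoded both on chromosome 9, in an intron of MIR181A2HG, and on chromosome 1. hsa-miR-181a-5p was 3.54 times as high as hsa-miR-181b-5p, against 4.81 and 4.02 times in the other tables.

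The hairpins of miR-23b and miR-27b lie in an intron of AOPEP on chromosome 9, and that of miR-24-1 was placed on the chromosome by its neighbouring genes. hsa-miR-27b-5p had a mean of 179, hsa-miR-24-1-5p of 120 and hsa-miR-23b-5p of 118. hsa-miR-27b-5p made up 42.9% of the sum of the 3 miRNAs, while it made up 63.4% and 70.7% in the other RPE1 tables. hsa-miR-3074-5p, whose hairpin is on the opposite strand, had 26.7, and hsa-miR-126-5p, from an intron of the endothelial gene EGFL7, had 21.1. The other 6 members (hsa-miR-3911, hsa-miR-4669, hsa-miR-491-5p, hsa-miR-4665-5p, hsa-miR-548au-5p and hsa-miR-2278) had means of 1.17 to 4.17. The plot of cluster make-up shows the proportions within the clusters of both chromosomes.

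**Figure D3:**
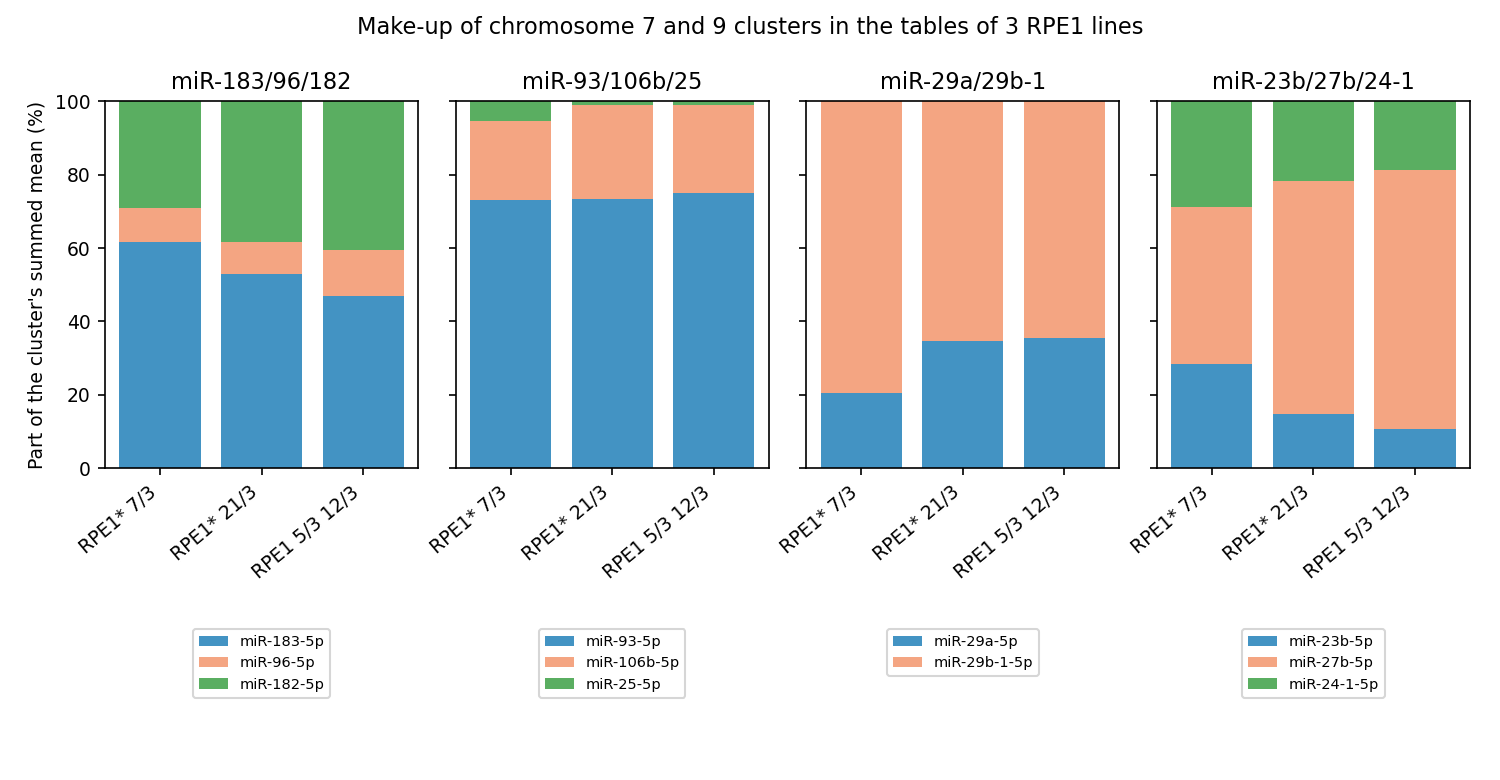
Part of each cluster's summed mean (%) taken by each miRNA, for 2 clusters and the miR-29a/29b-1 pair of chromosome 7 and the miR-23b/27b/24-1 cluster of chromosome 9, in the tables of 3 RPE1 lines, each pooled with its control. hsa-miR-25-5p takes 5.21% of its cluster in the RPE1* 7/3 table and under 1% in the others, and hsa-miR-27b-5p takes the smallest part in the RPE1* 7/3 table.

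Chromosome 12, the other spontaneous gain, had 14 miRNAs with all loci on it, which held 7.298% of the summed mean. Nearly all of that was hsa-let-7i-5p with a mean of 818446. hsa-miR-148b-5p, in an intron of COPZ1, was the only other one with a mean of at least 100, at 168. The other 12 ranged from 1.87 to 96.2.

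Among families, the seed ACCCGUA of hsa-miR-100-5p, hsa-miR-99b-5p and hsa-miR-99a-5p held 43.1% of the summed mean. The let-7 seed GAGGUAG was shared by 9 listed miRNAs with a sequence and held 12.9%. The 5 listed miR-30 miRNAs held 3.94%, the 4 of the miR-181 family 0.465%, and the miR-125 pair, known from differentiation, 0.675%. The tumour-suppressor family of miR-15, miR-16 and miR-195 had 6 members listed with 0.0223%, led by hsa-miR-16-5p at 1735. The family of miR-34 and miR-449, whose miR-34 members are induced by p53, had 4 members, led by hsa-miR-34a-5p at 1429. hsa-miR-155-5p, known from immune signalling, had a mean of 20294, hsa-miR-146b-5p of 4726 and hsa-miR-146a-5p of 11.04.

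32 genomic groups with at least 2 listed names were found when hairpins within 10 kb of the next were joined. Both arms of a hairpin counted as 2 names, so the groups of miR-3677, miR-5579 and miR-4690 are each a single hairpin. The cluster with the most listed names, 20, lay in the imprinted region 14q32 and included both arms of miR-299. From a list of miRNAs of that region, which does not name all of them, 26 were in the table, 22 with a mean of at least 10, and these held 0.511% of the summed mean. hsa-miR-379-5p (16866), hsa-miR-493-5p (12595), hsa-miR-411-5p (11581) and hsa-miR-134 (6149) led them. On the X chromosome, 8 miRNAs clustered with hsa-miR-532-5p, which had a mean of 5587. Members of a cluster could stand far apart. On chromosome 19, hsa-miR-27a-5p was 173 times as high as hsa-miR-23a-5p, both over an exon of MIR23AHG. For both, the 5p arm is opposite the well-known guide strand, so the ratio does not give the levels of the guides.

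To see how the levels of RPE1* 7/3 and its control stand beside another RPE1* line, shares of the summed mean were set against those in the table of RPE1* 21/3. No library is common to both tables. Each was normalised separately and pools a line with its own control, so line, control and sequencing run cannot be told apart in the ratio and no test was made. 217 miRNAs had a mean of at least 10 in both tables, and across these the log2 levels had a Pearson correlation of 0.96. The log2 ratio, centred on its median, was above 1 for 34 (15.7%) and under -1 for 39 (18.0%). Without centring, 29 miRNAs were over 2 times higher in share here and 49 over 2 times lower.

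For the 14 chromosome 7 miRNAs in this comparison the median centred log2 ratio was 0.25, with 9 of 14 above 0. Their values ran from -2.99 for hsa-miR-335-5p to 2.04 for hsa-miR-550a-5p. For the 10 chromosome 9 miRNAs the median was 0.24, with 7 of 10 above 0, from -1.63 for hsa-miR-126-5p to 1.64 for hsa-miR-204-5p. The 6 of chromosome 12 had a median of 0.05, and the 170 of other chromosomes a median of -0.17 with 83 above 0. Values within chromosome 7 or 9 spread far more widely than the medians differ, as the plot by chromosome shows.

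**Figure D4:**
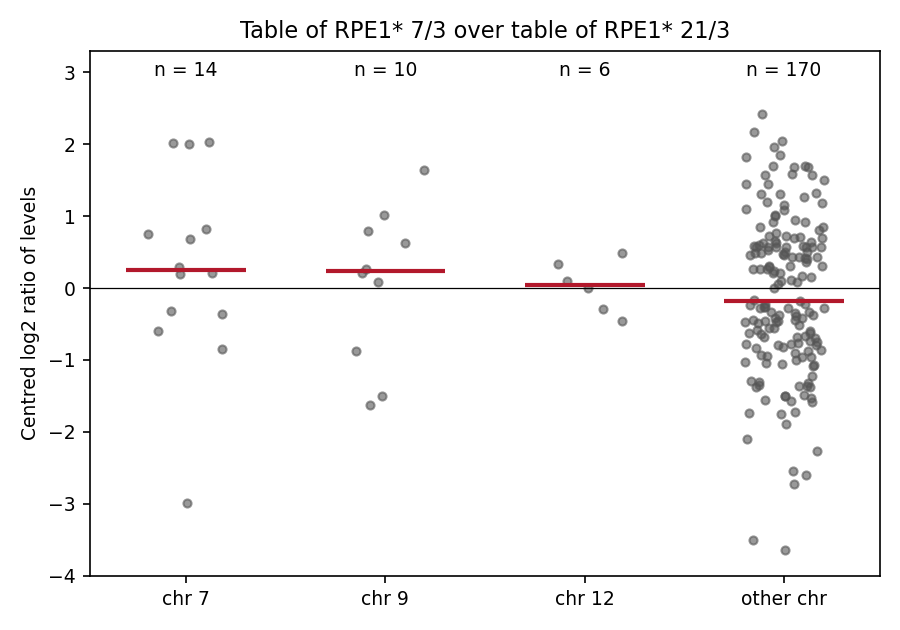
Centred log2 ratio of levels, table of RPE1* 7/3 over table of RPE1* 21/3, for miRNAs with a mean of at least 10 in both and all loci on one chromosome; each point is a miRNA and each red line a median. The medians of chromosomes 7 (0.25) and 9 (0.24) lie above that of the other chromosomes (-0.17), within the range of the points.

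The ratio also varied with base composition. Across 185 miRNAs with a sequence, it correlated with the GC content of the mature miRNA with a Pearson r of 0.32 and a Spearman rho of 0.37. These are descriptions across miRNAs of the same libraries, which are not independent replicates. The tercile with the lowest GC content had a median log2 ratio of -0.45, the middle tercile -0.26 and the highest tercile 0.51. hsa-miR-335-5p had a GC content of 30.4%, and hsa-miR-25-5p, hsa-miR-550a-5p and hsa-miR-550a-3-5p had 57.1%, 60.9% and 55.0%. Other miRNAs lay off this relation. hsa-miR-7-5p, with the highest ratio of the 217 (2.48), had 33.3%, hsa-miR-548aq-3p (2.05) had 31.8%, and hsa-miR-671-5p of chromosome 7 (0.21) had 69.6%. The chromosome 7 miRNAs had a median GC content of 47.5% and all 185 of 47.6%. After a linear fit on GC content was subtracted, the median was 0.36 for chromosome 7, 0.56 for chromosome 9 and -0.02 for other chromosomes. The part of base composition in the ratios of single miRNAs was not tested.

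**Figure D5:**
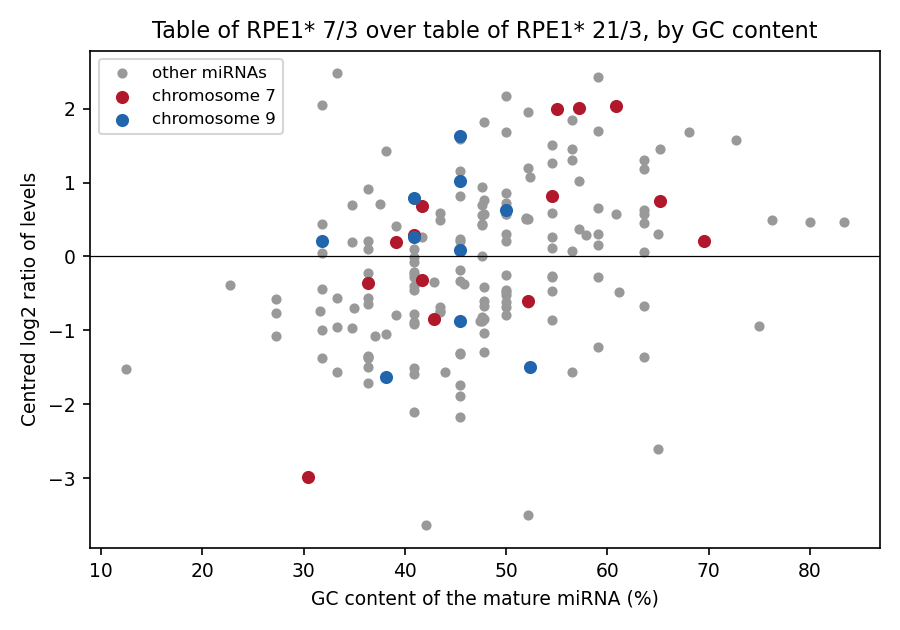
Centred log2 ratio of levels, table of RPE1* 7/3 over table of RPE1* 21/3, against the GC content (%) of the mature miRNA for 185 miRNAs, with those of chromosomes 7 and 9 in colour. Ratios are higher at higher GC content (Pearson r 0.32), and the lowest and highest chromosome 7 points lie at 30.4% and 60.9% GC.

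The 5 lowest ratios among miRNAs with a mean of at least 100 in either table were those of hsa-miR-1246 (-3.64), hsa-miR-145-5p (-3.50), hsa-miR-335-5p (-2.99), hsa-miR-374a-5p (-2.73) and hsa-miR-217 (-2.55). hsa-miR-145-5p, known from smooth muscle and fibroblasts, had a mean of 89.5 here and 808 in the table of RPE1* 21/3. The 5 highest were those of hsa-miR-7-5p (2.48), hsa-miR-365b-5p (2.43), hsa-miR-320b (2.17), hsa-miR-548aq-3p (2.05) and hsa-miR-550a-5p (2.04). hsa-miR-320b had a mean of 7242 here and 1280 there.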

How the data were processed

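Total RNA of RPE1* 7/3 and RPE1* cells, 3 libraries each, was sequenced by the authors as small RNA libraries with single reads. Per the authors' methods, reads were quality-trimmed if necessary, cutadapt took off adapters, mirdeep2 assigned reads to mature miRNAs on hg19, and the authors ran DESeq2 (version not given in the sources used here) without a paired term. The deposited signal is the authors' mean of counts divided by size factors over the 6 libraries. The table's 5 other columns hold the authors' own comparison and were not used. A count test was planned only for values of single libraries, so no test was made, and the table does not give the depth of single libraries.

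Shares are percentages of the summed mean. Hairpins were placed with GENCODE 44 on GRCh37, for 343 miRNAs, and 58 more by flanking genes in a RefSeq table (GRCh38.p14, coordinates not used), with 2 not placed. An exon is one of any annotated transcript on the same strand. Log2 ratios between tables used a mean of at least 10 in both and no pseudocount. Named miRNAs were all those of chromosomes 7 and 9, the 10 most abundant, members of listed families, and the 5 highest and 5 lowest ratios. Members and lists were chosen with earlier results of these data known, and the sequences shown, the clusters compared between tables, the miRNAs given a limit on their group means and the look for equal means were picked after values were seen. Ratio calculations were tested on simulated data. Computations ran in pandas 2.3.3 with scipy 1.17.1, on Python 3.11.15 and numpy 2.4.6, and plots were drawn with matplotlib 3.10.9.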

Additional observations from a re-analysis of the deposited data

How the results depend on the processing

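The median log2 ratios of chromosomes 7 and 9 stayed above 0 under each alternative run, and levels and shares moved as follows. Uncentred shares, and shares without hsa-miR-100-5p, shift all miRNAs alike. They therefore cannot set chromosome 7 or 9 against the other chromosomes, and a mean of at least 1 also moved both medians alike. With no limit on the mean, or a mean of at least 1, the number of usable miRNAs was 403 in place of 247, and at 100 or more it was 147. The share of chromosome 7 was 0.206% with any locus counted and 0.356% of the sum without hsa-miR-100-5p, and that of chromosome 9 was 6.06% and 0.716%. The median level of chromosome 7 miRNAs was 194.5 with no limit on the mean and 613 at 100 or more, and that of chromosome 9 miRNAs 118 and 1062. The median log2 ratio of levels, RPE1* 7/3 over RPE1* 21/3, was 0.10 for chromosome 7 and 0.090 for chromosome 9 with uncentred shares, and 0.38 and 0.37 without hsa-miR-100-5p. It was 0.47 and 0.46 at a mean of at least 1, 0.19 and 0.27 at 100 or more, 0.43 and 0.57 against RPE1 5/3 12/3, and 0.36 and 0.56 after the GC fit, which was chosen after seeing the data. The median of chromosomes other than 7, 9 and 12 was 0 against RPE1 5/3 12/3 and -0.02 after the GC fit. It is not given for the other alternatives. The number of genomic groups with at least 2 listed names was 32 at 3 kb and 37 at 50 kb.

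The values have no spread between libraries, so no difference between RPE1* 7/3 and its control, no error and no interval can be given. The planned count tests and the alternatives that leave out a library were not run for the same reason. No paired analysis was possible because the groups share 0 replicate numbers and the values pool all 6 libraries.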

Other observations

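26 miRNAs were listed in the table of RPE1* 7/3 and in no other table of the series, all at low levels. The highest was hsa-miR-323a-5p of chromosome 14 with a mean of 6.71. 2 of the 26 had all placed loci on chromosome 7, hsa-miR-592 (3.05) and hsa-miR-550b-2-5p (1.87), as did 19 of all 403. The lowest mean listed was 1.10 here and 2.14 to 11.9 in the other tables, so low entries were more readily listed here.

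5 of the 403 miRNAs had exactly the mean of another entry. hsa-miR-548c-5p, hsa-miR-548am-5p and hsa-miR-548o-5p all stood at 1.87, and hsa-miR-3180 and hsa-miR-3180-3p at 7.52. The first 3 lie on chromosomes 12, X, and both 7 and 20.

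Of 70 miRNAs with a sequence and a mean of at least 1000, 45 (64.3%) began with U, and of 125 with a mean under 10, 52 (41.6%) did.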
